A study of Mus musculus with 8 samples.

Results

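The Ccl21 array of mouse chromosome 4 is a cluster of recently copied genes and pseudogenes that holds the ligands Ccl21a and Ccl21b, copies of Ccl27 and of the interleukin 11 receptor alpha chain, the Fam205a genes and many predicted genes with Gm names. Its members were the rows of the count table on chromosome 4 that lay wholly between 41893388 and 42856771 (GRCm38, 963 kb) and had at least 40 raw counts over the 8 libraries. This gave 34 of 55536 rows, and the other 7 of the 41 rows in the window fell under the minimum. Of the 34 rows, 8 carried a gene name and 26 carried a Gm or Rik number. By annotation, 21 were protein-coding, 6 were pseudogenes, 4 were antisense transcripts, 2 were unclassified transcripts (type TEC, for which experimental evidence is awaited) and 1 was a processed transcript.

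The libraries were made from total RNA of the frontal cortex of 8-week-old mice after removal of ribosomal RNA. They fell into WT (n = 4) and HAR123-KO (n = 4), where HAR123-KO mice lack the enhancer HAR123 in an intron of Smg6 after CRISPR-Cas9 deletion. Per the study's methods, the strains had been crossed back to C57BL/6J over 8 passages or more and the controls were littermates. The sex of the animals was not given in the sources used here, and nothing states that each library came from a separate animal, so p-values measure the spread between these libraries. The deleted element has no row of its own in the count table, so the counts do not check the genotype labels directly. Whether the copy number of the array was the same in all animals was not analysed here.

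Ccl21 is a homeostatic chemokine. With Ccl19 it binds the receptor Ccr7 and guides T cells and dendritic cells into lymph nodes, and in the mouse it is encoded by several near-identical genes, among them Ccl21a, made in lymphoid stroma, and Ccl21b, made in lymphatic vessels outside lymphoid organs. Ccl27 is a ligand of Ccr10 known for the homing of T cells to skin, and interleukin 11 acts through its alpha receptor and the shared chain Il6st. Because the array arose by repeated copying, a short read from it can match several rows, and the study's sources do not state how reads with several matches were counted.

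The coding sequences of the Ccl21 rows show how little separates them. Over 402 coding bases, Ccl21b (chr4:42255767-42256432, plus strand, exonic) and Gm10591 (chr4:42612195-42612860, plus strand, exonic) differed at 0 bases, and each differed from Ccl21a (chr4:42772860-42773993, minus strand) at 2 bases. The substitutions from Ccl21a were T84A and C194T, counted from 1 at the start codon, in codons 28 and 65. Bases 54 to 224 of the coding sequence (reference transcripts, GRCm38) are shown with these 2 positions in capitals, because they are the only places in the coding sequence where a read can tell Ccl21a from the others.
Ccl21a: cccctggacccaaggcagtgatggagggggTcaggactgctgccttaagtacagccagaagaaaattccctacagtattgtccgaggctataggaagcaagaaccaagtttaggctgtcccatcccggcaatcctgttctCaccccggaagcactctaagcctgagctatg
Ccl21b: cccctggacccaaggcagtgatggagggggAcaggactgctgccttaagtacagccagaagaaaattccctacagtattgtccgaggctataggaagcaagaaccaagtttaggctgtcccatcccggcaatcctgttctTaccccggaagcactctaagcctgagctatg
The longer rows gave the same picture. Gm21541 (chr4:41903610-41904743, plus strand), which RefSeq names Ccl21d, differed from Ccl21a at 6 of 870 exon bases. Gm13304 (chr4:42114817-42115917, plus strand) differed from Ccl21a at 5 of 837 bases and from Gm21541 at 0 of 837 bases.

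The sequence before the start site was shared in the same way. The 250 bases before the RefSeq start of Ccl21a and of Gm13304 (GRCm38.p6) are shown with the 2 differing positions in capitals.
Ccl21a, chr4:42773992-42774241, minus strand: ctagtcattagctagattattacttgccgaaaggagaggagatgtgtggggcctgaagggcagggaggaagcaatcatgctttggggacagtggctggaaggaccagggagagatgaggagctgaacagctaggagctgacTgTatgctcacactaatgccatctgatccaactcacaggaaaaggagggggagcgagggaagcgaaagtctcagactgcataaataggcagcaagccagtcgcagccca
Gm13304, chr4:42114537-42114786, plus strand: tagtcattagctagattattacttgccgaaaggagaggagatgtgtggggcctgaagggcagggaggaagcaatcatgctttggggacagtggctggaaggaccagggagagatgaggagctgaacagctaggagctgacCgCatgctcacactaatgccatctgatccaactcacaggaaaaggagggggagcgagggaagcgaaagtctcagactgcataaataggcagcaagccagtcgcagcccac
Counted backwards from the start of Ccl21a over 249 aligned bases, the substitutions were T-109C and T-107C in Gm13304 and in Gm10591, and T-109C alone in Ccl21d. All 4 of these promoters held the letters CATAAATA, searched on both strands, which were present in 0.892% of the 32851 RefSeq promoters of the same length. The E-box CANNTG was in these 4 and in 66.2% of all promoters, and the letters TATAAA were in none of the 4 and in 12.4% of all promoters.

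RefSeq draws Ccl21b differently from the annotation behind the counts. There the gene spans chr4:42173120-42256825, 83706 bases on the plus strand, and reaches from a distant start to the Ccl21b coding exons. Of the count rows, 6 lie inside that span, namely Gm17167, Gm13301, Gm5859, Gm17081, Gm10600 and Ccl21b. The 250 bases before the distant start were 78.0% G or C, against 52.8% for the Ccl21a promoter.
Ccl21b, chr4:42172870-42173119, plus strand: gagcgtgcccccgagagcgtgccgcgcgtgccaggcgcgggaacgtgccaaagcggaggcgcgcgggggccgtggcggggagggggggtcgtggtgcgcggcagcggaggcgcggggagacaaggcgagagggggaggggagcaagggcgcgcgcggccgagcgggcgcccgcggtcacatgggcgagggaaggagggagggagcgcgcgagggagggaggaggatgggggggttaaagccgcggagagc
This window held no CATAAATA. It is shown because the RefSeq span holds 5 of the 8 array rows past the threshold.

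Library totals lay between 13528251 and 17051001 counts, of which the array took 1934 to 3173. A single row, Gm42418, took 55.1% to 58.0% of each library's counts. Nuclear protein-coding genes gave 2786320 to 3732172 counts per library. Summed markers of neurons, the main cells of the labelled tissue, lay between 18608 and 19008 normalised counts in WT and between 18443 and 18602 in HAR123-KO, a small difference without overlap. None of the 5 passed the threshold, and Slc17a7 had a log2 fold change of -0.16 (DESeq2 adjusted p = 8.21e-06). All normalised counts are raw counts divided by DESeq2's median-of-ratios size factors. Genotypes were compared with DESeq2's Wald test over the whole table, and the threshold was a Benjamini-Hochberg adjusted p under 0.05 together with a log2 fold change beyond 0.5 in either direction. Fold changes are HAR123-KO minus WT ± SE. Rows with a mean under 17.6 normalised counts received no adjusted p.

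The array as a whole had more counts in HAR123-KO frontal cortex, and its rows differed widely in fold change. Summed over the 34 rows, normalised counts were 2177, 2337, 2200 and 2256 in WT and 2749, 2872, 2794 and 2849 in HAR123-KO, so that the genotypes did not overlap. As a share of all counts, the array took 143 to 156 counts per 1e6 counts in WT and 190 to 197 in HAR123-KO. If reads were counted in several rows, these sums hold some reads more than once. Of 28 array rows with an adjusted p, 8 (28.6%) rose and 0 fell, against a background of 0.227% of 12758 tested rows called higher and 0.0705% called lower. The 8 rows were Gm13302, Gm21541, Gm13304, Gm17167, Gm5859, Gm17081, Gm10600 and Ccl21b. At an unadjusted p under 0.05, 21 of 34 array rows were higher and 2 lower, against 3.9% and 3.64% of the 16576 rows with at least 40 counts. The quasi-likelihood test of edgeR called 9 of 32 tested array rows higher and 0 lower, against 0.331% and 0.172% of 14503 rows. Groups did not overlap, with HAR123-KO higher, for 16 of 34 rows (47.1%), against 3.56% of the 16576 rows with at least 40 counts. For 0 of the 34 rows was HAR123-KO lower without overlap, against 3.25%. The median log2 fold change over the 34 rows was 0.34, with 28 rows above 0, against a median of -0.0015 over all rows with at least 40 counts, 49.6% of which were above 0. These counts are of rows and not of independent genes, since many rows share sequence. With each near-identical set as 1 feature, 7 of 30 array features passed, against 0.288% of all features tested. Without HAR123-KO replicate 4 the array calls were 3 and without WT replicate 3 they were 5, in fits where fewer array rows (11 and 15) received an adjusted p.

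**Figure D1:**
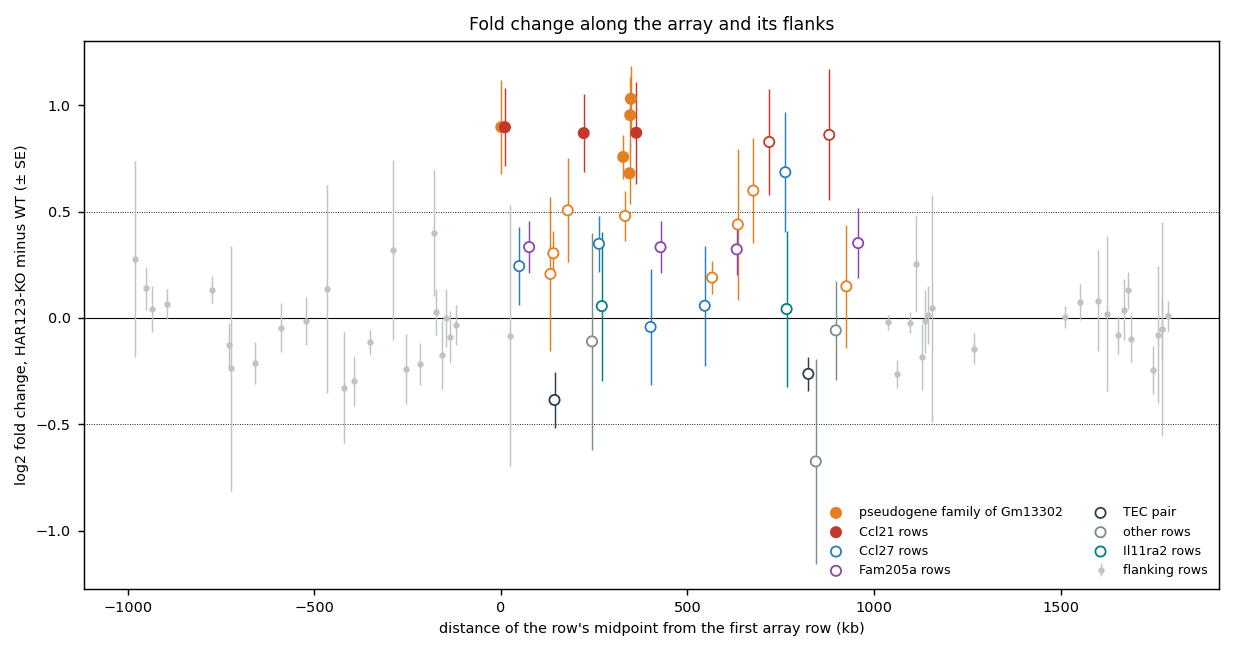
Log2 fold change (HAR123-KO minus WT, ± SE) of the 34 array rows and 46 flanking rows, against the distance in kb of each row's midpoint from the start of the array. Filled circles are rows past the threshold, open circles are the other array rows, grey points are flanking rows and dotted lines mark 0.5 and -0.5. The filled circles lie between 0.68 and 1.03, and no flanking row reaches 0.5.

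The Ccl21 ligand rows were higher in HAR123-KO in every case, and 3 of 5 passed the threshold, against 0.227% of all tested rows. Of these 3, Gm21541 and Gm13304 are 1 measurement. The 5 log2 fold changes lay between 0.83 and 0.90. Over their 402 bases Ccl21b and Gm10591 are also identical to parts of Gm21541 and Gm13304, and Ccl21a is near-identical. The 5 rows can therefore draw on the same reads and are not independent results, although they lie apart along the array. Gm21541 was at 36.0, 48.4, 41.5 and 27.8 normalised counts in WT and at 74.7, 69.4, 69.6 and 74.4 in HAR123-KO. All HAR123-KO libraries lay above all WT libraries, and WT varied more than HAR123-KO. Its log2 fold change was 0.90 ± 0.18, past the threshold (DESeq2 adjusted p = 0.000159). Gm13304, its identical copy, was at 34.9, 48.4, 43.2 and 27.8 in WT and at 74.7, 67.5, 68.7 and 73.4 in HAR123-KO, and rose by 0.87 ± 0.18 (DESeq2 adjusted p = 0.000351). The counts of these rows differed by at most 3.92% in any library, so they were also taken as 1 feature. Refitted as 1 feature, the pair had a log2 fold change of 0.88 ± 0.18 (DESeq2 adjusted p = 0.000276).

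Ccl21b, the ligand gene of non-lymphoid vessels, was at 21.4, 29.9, 21.2 and 17.1 in WT and at 44.0, 37.1, 41.4 and 41.5 in HAR123-KO. The groups did not overlap, and WT replicate 2 stood nearest to the HAR123-KO libraries. The row rose by 0.87 ± 0.24 (DESeq2 adjusted p = 0.0206). This call was the least stable of the 8: with libraries left out in turn it held in 1 of 8 fits, the one without WT replicate 2, at a log2 fold change between 0.77 and 1.04, and in 3 of the 8 it received no adjusted p. Gm10591, identical to Ccl21b over its 402 bases, was at 16.9, 25.7, 21.2 and 18.2 in WT and at 33.8, 35.2, 37.9 and 39.3 in HAR123-KO. It stood just outside the threshold at 0.83 ± 0.25 (DESeq2 adjusted p = 0.0544) and passed under edgeR (adjusted p = 0.0160).

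Ccl21a, the ligand gene of lymphoid stroma, was at 7.88, 17.5, 22.9 and 9.63 in WT and at 23.5, 26.6, 29.9 and 27.7 in HAR123-KO. The groups did not overlap, but WT replicate 3 came within 1 normalised count of HAR123-KO replicate 1. Its log2 fold change of 0.86 ± 0.31 did not pass the threshold (DESeq2 adjusted p = 0.182, edgeR adjusted p = 0.0753). Per kb of exon, Ccl21a had the lowest level of the family, 16.6 normalised counts in WT and 31.0 in HAR123-KO. Gm21541, of the same exon length, had 44.2 and 82.8, Gm13304 46.1 and 84.9, Gm10591 51.0 and 90.9, and Ccl21b 55.7 and 102. The neighbours in this order other than Ccl21a differed by less than 1 SD of the WT libraries. Of the counts on Ccl21a and Gm21541 together, Ccl21a took 17.9%, 26.6%, 35.5% and 25.7% in WT and 24.0%, 27.7%, 30.1% and 27.1% in HAR123-KO, ranges that overlapped.

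Rows with the same gene names also lie on 3 scaffolds that the assembly assigns to chromosome 4 without a position. They are outside the array by rule, no reference sequence was used for them here, and they were picked by name after the array's values had been seen. On the first scaffold a Ccl21b row had 34.9, 47.4, 43.2 and 25.7 normalised counts in WT and 76.8, 67.5, 67.8 and 72.3 in HAR123-KO, within a few counts of Gm21541 in every library. On the same scaffold Ccl21c was at 19.2 ± 4.09 (SD, n = 4) in WT and 35.4 ± 1.92 in HAR123-KO. On the second, a further Ccl21b row was at 18.7 ± 4.23 and 34.4 ± 2.91, close to Gm10591. A Ccl21a row on the third was at 9.52 ± 5.88 and 17.3 ± 1.30. These Ccl21 rows on scaffolds had log2 fold changes of 0.81 to 0.90. The other scaffold rows had lower ones, 0.35 and 0.46 for Ccl27, 0.31 for Fam205a2, and 0.01 and -0.07 for Il11ra2. Whether the scaffold rows hold the same reads as the array rows was not tested.

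**Figure D2:**
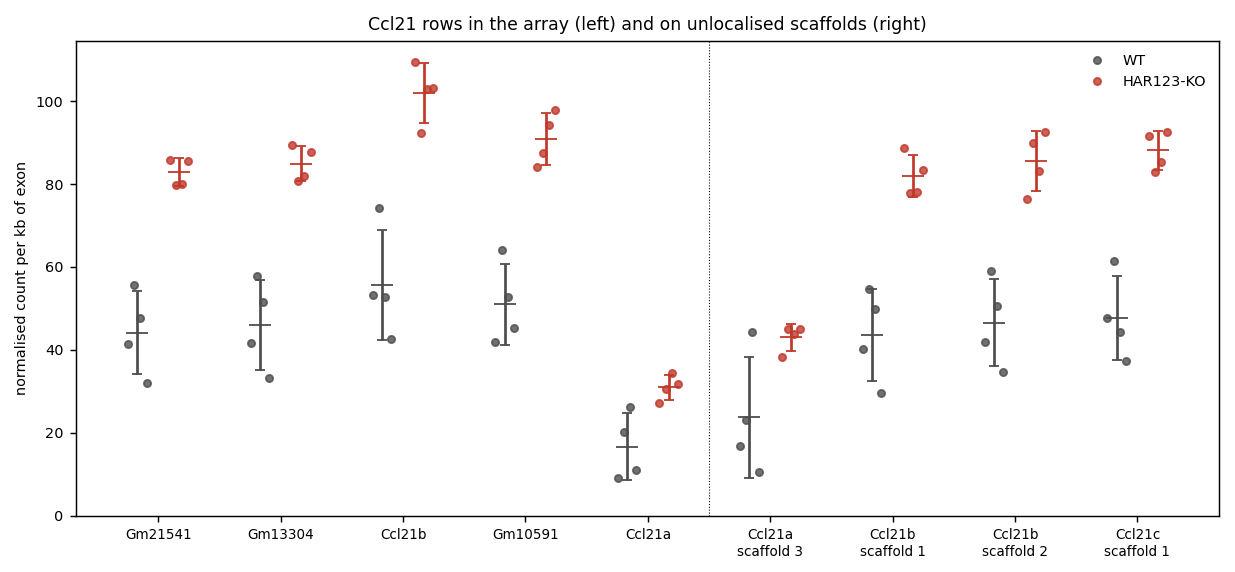
Normalised counts per kb of exon for the 5 Ccl21 rows of the array (left of the dotted line) and the 4 Ccl21 rows on unlocalised scaffolds (right), in WT (grey) and HAR123-KO (red). Each point is a library and bars are the mean ± SD of 4 libraries. The 5 array rows do not overlap between genotypes, and Ccl21a stands lowest at 16.6 in WT and 31.0 in HAR123-KO.

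The largest fold changes, those of Gm10600 and Gm17081, lay beside Ccl21b. The 6 rows inside the RefSeq Ccl21b span, over 49.4 kb from 42206998 to 42256432, had log2 fold changes of 0.48 to 1.03, and 5 of them passed the threshold. Of the 28 rows outside it, 3 passed, and their median log2 fold change was 0.31. The share over all tested rows was 0.227%, and the difference between the rows inside and outside was not tested. The rows inside are not independent, since Gm5859, Gm10600 and Gm17081 match Gm17167 at 99.2% to 99.6% identity. Gm10600, a predicted protein-coding gene (chr4:42240639-42242685, plus strand), was at 49.5, 49.4, 54.2 and 48.1 in WT and at 112, 85.6, 107 and 108 in HAR123-KO. WT libraries hardly differed, and every HAR123-KO library was well above them. It had the largest fold change of the array, 1.03 ± 0.16 (DESeq2 adjusted p = 1.89e-08), and was the only array row past stricter limits of adjusted p under 0.01 and log2 fold change over 1.

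Gm17167, a processed transcript in the lower part of this stretch (chr4:42206998-42235313, plus strand), had the smallest adjusted p. It was at 126, 146, 147 and 148 in WT and at 268, 218, 212 and 265 in HAR123-KO, so HAR123-KO replicates 1 and 4 stood above replicates 2 and 3. It rose by 0.76 ± 0.10 (DESeq2 adjusted p = 6.99e-11) and was called in all 8 fits with a library omitted. The pseudogene Gm5859 (chr4:42236859-42239182) was at 102, 75.2, 72.0 and 69.5 in WT and at 155, 105, 110 and 141 in HAR123-KO. The groups came close, since WT replicate 1 lay just under HAR123-KO replicate 2, and the same HAR123-KO replicates 1 and 4 were highest. It rose by 0.68 ± 0.14 (DESeq2 adjusted p = 0.000395). The pseudogene Gm17081 (chr4:42239725-42240202) was at 48.4, 43.2, 33.0 and 37.4 in WT and at 69.6, 80.8, 74.0 and 87.2 in HAR123-KO. It rose by 0.95 ± 0.18 with no overlap of the groups (DESeq2 adjusted p = 1.92e-05). Gm13301, a transcribed pseudogene (chr4:42216908-42235604), was at 113, 135, 100 and 110 in WT and at 166, 172, 156 and 141 in HAR123-KO. Its log2 fold change of 0.48 ± 0.12 had a DESeq2 adjusted p of 0.00396 but was under the fold limit, and it shares 1312 exon bases on the same strand with Gm17167.

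**Figure D3:**
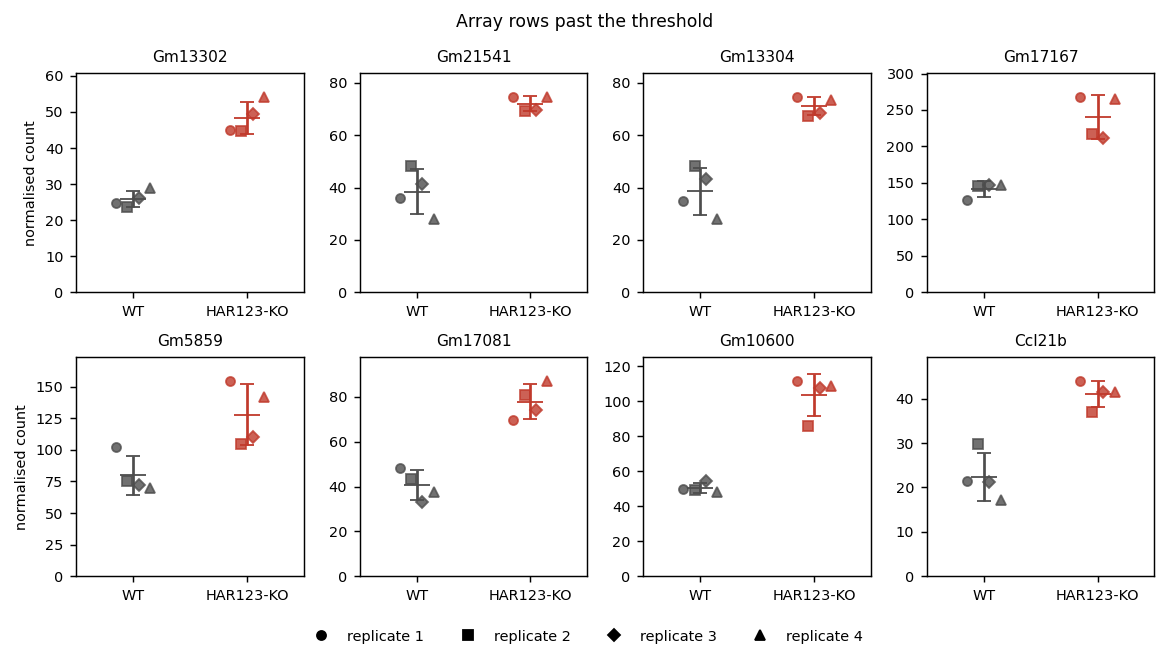
Normalised counts of the 8 array rows past the threshold in WT (grey) and HAR123-KO (red), on axes that start at 0. Marker shapes give the replicate number and bars are the mean ± SD of 4 libraries. In each panel all HAR123-KO libraries lie above all WT libraries, and Gm10600 has the largest fold change with WT at 50.3 ± 2.67 and HAR123-KO at 103 ± 11.9.

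Most of these rows belong to 1 sequence family. Joined at 95% identity or more over at least 80% of the shorter transcript, 13 rows of the array formed a family of pseudogenes and predicted genes. Of them 5 passed the threshold, against 0.227% of all tested rows, and 13 had a log2 fold change above 0, against 49.6% of rows with at least 40 counts. The median was 0.51. The log2 fold changes within the family ran from 0.15 for Gm12394 to 1.03 for Gm10600, which are joined through other members and did not meet the family limits as a pair. Gm13302, at the lower edge of the array (chr4:41893388-41895236, plus strand), was at 24.8, 23.7, 26.3 and 28.9 in WT and at 45.0, 44.7, 49.3 and 54.2 in HAR123-KO. It rose by 0.90 ± 0.22 with no overlap (DESeq2 adjusted p = 0.00482). Its neighbour Gm21541 carried a change of the same size.

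Other members of the family had smaller fold changes that did not pass the threshold. Gm21093 was at 120 to 148 in WT and 170 to 176 in HAR123-KO, a log2 fold change of 0.30 ± 0.10 that did not pass (DESeq2 adjusted p = 0.144). Gm3883, the most abundant of the family, was at 239 to 290 in WT and 290 to 324 in HAR123-KO, with a log2 fold change of 0.19 ± 0.08 (DESeq2 adjusted p = 0.353). Gm13303 was at 12.6 ± 2.48 (SD, n = 4) in WT and 14.4 ± 3.74 in HAR123-KO, Gm2163 at 11.8 ± 2.54 and 15.8 ± 1.51, and Gm12394 at 20.1 ± 6.26 and 22.1 ± 1.73, all with overlapping groups. Averaged into 1 feature, the 13 rows had a log2 fold change of 0.51 ± 0.14 (DESeq2 adjusted p = 0.0144), and the 5 Ccl21 rows one of 0.87 ± 0.22 (DESeq2 adjusted p = 0.0059).

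The antisense rows Gm3892 and Gm10593, of the same family, rested on 1 library. Gm3892 was at 27.0, 32.9, 27.1 and 31.0 in WT and at 35.8, 67.5, 29.9 and 34.0 in HAR123-KO. Gm10593 was at 29.3, 32.9, 28.0 and 28.9 in WT and at 38.9, 74.2, 31.7 and 35.1 in HAR123-KO. In both rows HAR123-KO replicate 2 stood far above all other libraries. The transcripts are identical over 3539 bases and their counts differed by at most 8.97%. Neither passed the threshold (DESeq2 adjusted p = 0.513 and 0.336), and without HAR123-KO replicate 2 the log2 fold changes dropped from 0.51 to 0.17 and from 0.60 to 0.24.

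The rows that share sequence with the Ccr10 ligand Ccl27 gave mixed values, and 0 of 5 rows passed by DESeq2, edgeR or limma-voom, with 2 higher at an unadjusted p under 0.05, against 3.9% of all rows with at least 40 counts. Ccl27b was at 15.8, 19.6, 17.8 and 13.9 in WT and at 28.7, 23.8, 28.2 and 27.7 in HAR123-KO. Groups did not overlap, but the row is low and its log2 fold change of 0.69 ± 0.28 had a DESeq2 adjusted p of 0.348. Gm13306 was at 97.9, 105, 105 and 77.0 in WT and at 119, 109, 113 and 153 in HAR123-KO, again without overlap (0.35 ± 0.13, DESeq2 adjusted p = 0.245). It matched Ccl27b at 99.7% over 313 bases, a shorter share than the family rule asked for. The other 3 rows overlapped between genotypes. Gm20878 was at 47.2 ± 4.92 (SD, n = 4) in WT and 55.6 ± 8.25 in HAR123-KO, Gm21953 at 25.0 ± 2.13 and 24.0 ± 8.29, and Gm21586 at 22.4 ± 1.77 and 23.2 ± 7.76. These 3 rows share 264 identical bases. Ccl27a, whose transcript matched Gm21953 and Gm21586 at 99.2% identity, lies in the lower flank and was at 211 ± 11.3 and 207 ± 27.5.

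The receptor copies showed no change that could be detected at this depth. Il11ra2 was at 13.5, 12.4, 12.7 and 11.8 in WT and at 13.3, 10.5, 12.3 and 16.0 in HAR123-KO, with a log2 fold change of 0.04 ± 0.37. Gm13305 was at 14.6, 14.4, 12.7 and 12.8 in WT and at 16.4, 10.5, 15.0 and 14.9 in HAR123-KO (0.06 ± 0.35). Both were too low to receive an adjusted p from DESeq2, and their edgeR adjusted p were 0.981 and 0.971. Il11ra1, the parent receptor gene in the lower flank, matched Il11ra2 at 99.2% identity and was at 74.6 ± 16.5 in WT and 67.0 ± 6.38 in HAR123-KO. Il11ra2 lies next to Ccl27b, and whether their values differ was not tested.

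The Fam205a genes, which are poorly characterised, were a little higher in HAR123-KO without passing the threshold, and 0 of 4 rows passed by DESeq2, edgeR or limma-voom, with all 4 at an unadjusted p under 0.05 (3.9% of all rows with at least 40 counts were higher at that p), although 3 of the 4 rows are 1 measurement. Fam205a4 was at 118, 96.8, 92.4 and 128 in WT and at 125, 140, 142 and 138 in HAR123-KO. WT fell into a lower pair (replicates 2 and 3) and a higher pair (replicates 1 and 4), and of these only replicate 4 reached into the HAR123-KO range. Fam205a2 and Fam205a3 had the same 3927 exon bases as part of Fam205a4, and counts of the 3 rows differed by at most 8.84%, so they were also fitted as a single feature. In that fit they had a log2 fold change of 0.33 ± 0.12 (DESeq2 adjusted p = 0.228). Fam205a1, at the upper edge, was at 59.1 ± 10.2 (SD, n = 4) in WT and 74.6 ± 7.69 in HAR123-KO (0.35 ± 0.16, DESeq2 adjusted p = 0.474).

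In all, 6 array rows had a log2 fold change below 0. The unclassified transcripts Gm37530 and Gm21955, which matched each other at 98.5% identity, were the best measured of them. Gm21955, the most abundant row of the array, was at 307, 360, 340 and 329 in WT and at 261, 320, 261 and 273 in HAR123-KO. HAR123-KO replicate 2 overlapped with WT, and the log2 fold change was -0.26 ± 0.08 (DESeq2 adjusted p = 0.0502, edgeR adjusted p = 0.0135). Gm37530 was at 119, 156, 137 and 135 in WT and at 96.2, 137, 100 and 85.1 in HAR123-KO, again with replicate 2 high (-0.39 ± 0.13, DESeq2 adjusted p = 0.124). Without HAR123-KO replicate 2 it passed the threshold at -0.54 (DESeq2 adjusted p = 0.0149). It shares 146 exon bases with Gm21093 on the opposite strand, and the strand setting of the counting was not given in the sources used here. Of the other rows below 0, Gm21953 is given above, 4930578G10Rik was at 25.7 to 45.8 in WT and 25.6 to 49.3 in HAR123-KO, Gm13299 at 7.11 ± 2.40 (SD, n = 4) and 6.52 ± 1.15, and Gm12395 at 9.65 ± 2.36 and 6.11 ± 1.63. Gm13299 with 55 raw counts and Gm12395 with 64 were the rows just inside the minimum, and Ccl19-ps1 with 13 was the highest outside it.

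**Figure D4:**
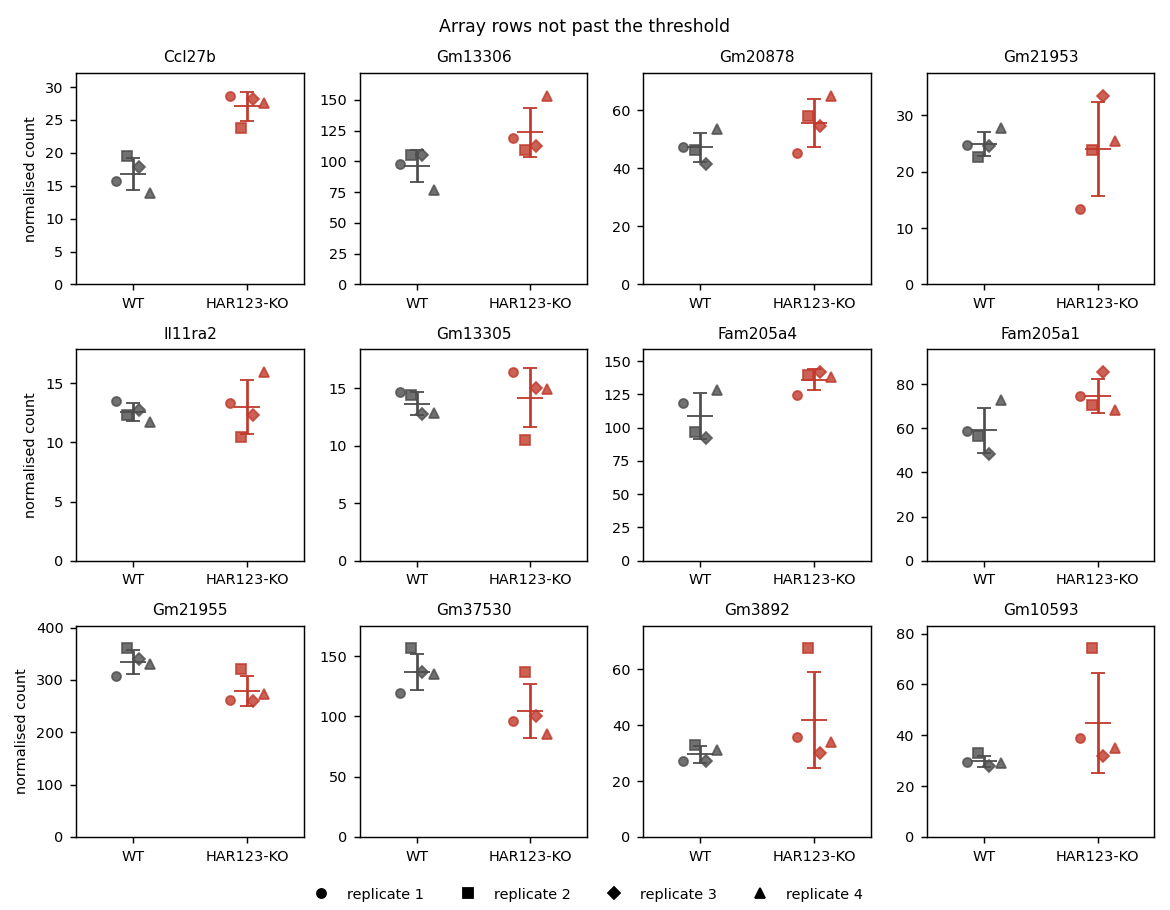
Normalised counts of 12 array rows that did not pass the threshold, in WT (grey) and HAR123-KO (red), on axes that start at 0. Marker shapes give the replicate number and bars are the mean ± SD of 4 libraries. Il11ra2 and Gm13305 overlap between genotypes, and HAR123-KO replicate 2 stands alone in Gm3892 at 67.5 and in Gm10593 at 74.2.

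No gene beside the array passed the threshold. Within 1 Mb on each side, 46 rows had at least 40 counts, 0 of them passed the threshold by DESeq2, edgeR or limma-voom, and their median log2 fold change was -0.02. At an unadjusted p under 0.05, 1 flanking row was higher and 6 were lower, against 3.9% and 3.64% of all rows with at least 40 counts. Gm13307, whose exons cross the lower edge on the opposite strand, had a log2 fold change of -0.08 with only 40 counts in all, and Phf24, the nearest row above the array, one of -0.02 ± 0.04. Dnajb5, a chaperone gene next to Phf24, had an adjusted p of 0.00942 by DESeq2 at a log2 fold change of -0.26, under the fold limit.

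Receptors for the array's ligands had few counts in this tissue. Over all 8 libraries Ccr7 and Ackr4 each had 2 raw counts, Ccr10 had 5, and Ccl19, the other Ccr7 ligand, had 9. Of 30 genes listed for the chemokine and interleukin 11 receptor pathways, 20 had at least 40 counts, 17 had an adjusted p and 0 passed the threshold by DESeq2. At an unadjusted p under 0.05, 2 of the 20 were higher, Ackr2 and the array row Ccl21a, and 4 were lower, against 3.9% and 3.64% of all rows with at least 40 counts. Ackr2, a scavenging receptor of inflammatory chemokines, was at 9.01, 8.24, 7.63 and 6.42 in WT and at 19.5, 17.1, 19.4 and 13.8 in HAR123-KO. The groups did not overlap; the row was too low for an adjusted p from DESeq2 and passed under edgeR (adjusted p = 0.0289). Cxcl12, the ligand of Cxcr4 and Ackr3, was at 112 ± 8.69 (SD, n = 4) in WT and 91.2 ± 4.17 in HAR123-KO (DESeq2 adjusted p = 0.404). Ackr1, Il6st, Lifr, Jak1, Jak2 and Stat3 had log2 fold changes between -0.09 and -0.01.

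Markers of other cell types that the tissue could hold were summed in each library. Of 6 lymphatic endothelial markers, 4 had at least 40 counts and 0 passed, Lyve1 had 11 counts in all and Mmrn1 had 0, and the summed level was 596 to 665 in WT and 653 to 693 in HAR123-KO, most of it Reln. Of 6 T cell markers, Cd8a, Cd3g and Cd3d were at 0, and the summed level was 27.8 to 51.8 in WT and 53.2 to 64.3 in HAR123-KO, nearly all of it Cd4. Cd4, the co-receptor of helper T cells, was at 37.9 ± 10.3 (SD, n = 4) in WT and 56.0 ± 5.61 in HAR123-KO without overlap. Its log2 fold change of 0.58 ± 0.20 did not pass by DESeq2 (adjusted p = 0.148) and passed under edgeR (adjusted p = 0.0496). B cell markers summed to at most 7.49. Dendritic cell markers summed to 83.9 to 105 in WT and 83.6 to 104 in HAR123-KO. Microglia markers summed to 621 to 699 in WT and 606 to 635 in HAR123-KO, and both lists overlapped between genotypes. The 8 choroid plexus markers did move with genotype. All 8 were higher in HAR123-KO without overlap, but only 4 of them had at least 40 counts. The share among all rows with at least 40 counts was 3.56%, and no share was computed for lower rows. Ttr and Kl passed the threshold, against 0.227% of tested rows called higher, and Clic6 passed under edgeR alone (adjusted p = 0.000464). The sum of the list was 954 to 1007 in WT and 1855 to 1973 in HAR123-KO, nearly all of it Enpp2 and Ttr. Of 5 brain endothelial markers, only Vwf passed the threshold, against 0.0705% of tested rows called lower. It fell from 91.8 ± 4.96 (SD, n = 4) in WT to 49.4 ± 9.70 in HAR123-KO. The sum of the 5 was 291 to 313 in WT and 194 to 229 in HAR123-KO. Marker sums of oligodendrocytes were higher in HAR123-KO without overlap (11177 to 11638 against 13123 to 13460). Those of astrocytes (2513 to 2687 against 2230 to 2416) and of fibroblasts and meninges (1332 to 1363 against 1140 to 1215) were lower. In these lists 0 markers passed the threshold. Most of the fibroblast and meninges sum was Ptgds, at 1194 ± 19.0 (SD, n = 4) in WT and 1051 ± 23.9 in HAR123-KO. Igf2, with 40 raw counts in all, was also lower without overlap. Col1a1, Col1a2, Dcn, Lum and Slc6a13 overlapped between genotypes. The part of these cell types in the array's values was not tested, and in bulk tissue more cells of a type and more RNA per cell cannot be told apart.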

How the data were processed

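Per the labels and the study's methods, the authors aligned paired-end reads of 100 cycles with STAR 2.5.2b to GRCm38 and deposited raw read counts per gene from featureCounts with Ensembl release 96 annotation. Strand setting and treatment of multi-mapping reads were not given in the sources used here, and both could shift counts between array copies. The count table had 55536 rows, and all identifiers matched GENCODE M21 positions. No row was left out of the library totals of 13528251 to 17051001 counts.

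The members and gene lists were chosen with earlier results of these data known. Raw counts were fitted with DESeq2 1.42.0 (R 4.3.3, Wald test, median-of-ratios size factors, independent filter at 0.1), genotype being the only term, over all rows and 8 libraries. The threshold was adjusted p under 0.05 and log2 fold change over 0.5. Alternatives were edgeR 4.0.16 quasi-likelihood, limma-voom (limma 3.58.1), other size factors, count filters, stricter or looser thresholds, a replicate block and each library left out. Rows were near-identical where counts differed by at most 10% in every library, and sequence families came from BLAST+ 2.17.0. Named rows were those past the threshold, those with gene names, set representatives, the 5 largest and smallest fold changes at a mean of at least 10, nearest flanking rows, sequence relatives and pathway genes; the remaining members were named to account for all 34. On simulated counts with 200 changed genes of 55536, at a log2 change of 1 in this comparison, DESeq2 recovered 92% with 1 false call. The changed genes were drawn only from rows above a minimum mean count, and all rows had the same fixed dispersion. The 92% therefore does not cover array rows with low means or smaller changes. Libraries of a genotype differed by more than counting noise (chi-square per degree of freedom 1.21 to 1.30 within and 1.58 to 1.72 across genotypes), so no pair was merged.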

Additional observations from a re-analysis of the deposited data

Results flagged for a closer look

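Each of the 34 rows and their sum was examined in both genotypes for a library far from the other 3 of its group (a gap beyond Dixon's 95% critical value), 70 groups in all, of which chance alone gives about 1 in 20, or 3.5. This picked out 8 values. HAR123-KO replicate 2 was at 67.5 for Gm3892 against 29.9 to 35.8 in the other 3 libraries, and at 74.2 for Gm10593 against 31.7 to 38.9, which is 1 event seen in an identical pair of rows. The same library was low for Gm10600, at 85.6 against 107 to 112. WT replicate 1 was low for Gm17167, at 126 against 146 to 148, and high for Gm5859, at 102 against 69.5 to 75.2. WT replicate 4 was at 10.7 for Gm13299 against 5.63 to 6.18, HAR123-KO replicate 1 at 122 for Fam205a3 against 138 to 141, and HAR123-KO replicate 3 at 24.7 for Gm12394 against 20.9 to 21.5.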

How the results depend on the processing

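The 8 array calls became 9 with edgeR, 9 with limma-voom, 10 with library totals as size factors, 8 with TMM factors, 7 with near-identical rows counted once, 9 with no minimum fold change and 1 at adjusted p under 0.01 with log2 fold change over 1. The 38 calls over all rows became 73, 55, 48, 40, 40, 215 and 3 under the same settings. Leaving out each library gave 3 to 9 array calls, 11 to 44 calls in all and an array median log2 fold change of 0.28 to 0.42, against 0.34. The lowest counts came without HAR123-KO replicate 4 (3 array calls, 11 in all) and without WT replicate 3 (5 and 18), where DESeq2's filter left 11 and 15 array rows with an adjusted p in place of 28. With the filter off, an alternative chosen after seeing the data, leaving out each library gave 6 to 8 array calls and 24 to 35 in all. Same-numbered libraries shared only a number (correlations of their deviations from -0.0154 to 0.0177), and a replicate block gave 2 array calls, 2 with near-identical sets as 1 feature and 9 calls in all, with the median at 0.34. With 3 near-identical sets as 1 feature each, 7 of 30 features passed, 3 to 8 without each library, 8 with edgeR and 1 at the stricter limits. Joined by sequence identity, 2 of 11 features passed. A tolerance of 20% gave 5 near-identical sets. Among rows near 0, the sign turned in fits without a library, with log2 fold changes of -0.22 to 0.15 for Gm13299, -0.019 to 0.18 for Gm13305, -0.26 to 0.15 for Gm21953, -0.12 to 0.24 for Gm21586, -0.066 to 0.13 for Il11ra2, -0.26 to 0.070 for 4930578G10Rik, -0.0086 to 0.29 for Gm12394, -0.11 to 0.042 for Ccl27a and -0.35 to 0.12 for Gm13307. Gm21586 was at -0.0028 with limma-voom, and Ccl27a at 0.0063 and Phf24 at 0.019 with library totals. Apart from these turns, over the 34 array rows and 4 flanking genes 551 single-row values kept sign and side of the threshold, 20 lost the call and 7 gained it. The cause of these changes was not tested beyond the filter. Rows with means of 10 to 40 normalised counts had SEs of about 0.2 to 0.4 on the log2 scale, which limits them to large changes.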

Other observations

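Of the 41 rows of the window, 7 stayed under the minimum of 40 raw counts: Ccl19 with 9, the pseudogenes Ccl19-ps1 with 13 and Ccl19-ps3 with 9, Gm2564 with 12, 1700045I11Rik with 4, Gm21980 with 3 and Gm3893 with 1 over the 8 libraries. No comparison was made for them. Over the RefSeq windows from 250 bases before to 50 after the start, Ccl21b and 4930578G10Rik were identical at 289 of 289 aligned bases, with the windows shifted by 11 bases. The counted rows do not begin at these starts. Ccl21b is counted from 42255767 and has its RefSeq start at 42173120, and 4930578G10Rik is counted from 42735545 with its RefSeq start at 42670290. Their values therefore do not measure the shared sequence. The log2 fold changes were 0.87 ± 0.24 for the Ccl21b coding row and -0.06 ± 0.23 for 4930578G10Rik, and whether they differ was not tested.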
